A study of Mus musculus with 20 samples.

Results

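The genes described here are 32 markers of astrocyte identity and reactivity, measured in mouse hippocampal cultures after blockade of NMDA receptors. They were chosen by name, as genes that mark astrocytes or that astrocytes raise when they become reactive, with earlier results of these data known. The rule itself uses no measured value. All 32 were on the array, which held 27671 named genes, and all 32 were among the 19360 genes tested. Dissociated hippocampal neurons were treated at day 21 in vitro for 24 h, with 5 arrays in each of 4 groups. Control cultures received vehicle. AP5 cultures received 100 µM AP5, a competitive NMDA receptor antagonist. NVP cultures received 100 nM NVP-AAM077, an antagonist that prefers receptors with the Grin2a product. Ro25 cultures received 1 µM of a compound that the labels spell Ro25-4891, a code that does not settle which receptor subunit it prefers. The labels name no mouse strain, genotype or embryonic age. They do not state that arrays within a group stem from different cultures, so p-values measure only the spread between these arrays, which may be technical. On each array the sample in Cy5 competed with a universal mouse reference RNA in Cy3, without dye swap. A level below is therefore a log2 ratio to that reference, and a difference is between log2 ratios, so that 1 is a 2-fold change.

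Astrocytes take up the glutamate that neurons release, turn it into glutamine, buffer potassium and water, and pass metabolites to each other through gap junctions. In culture they grow beneath and among the neurons, and their share depends on plating and on any antimitotic drug given. When injured or inflamed they become reactive: intermediate filament genes such as Gfap and Vim rise, and acute genes such as Lcn2 and Serpina3n are induced. Neuronal activity and glutamate are known to influence the expression of astrocyte genes, including those of the glutamate transporters. In whole cultures fewer astrocytes and less RNA per astrocyte cannot be told apart.

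The source is labelled as cultured neurons, and astrocyte transcripts were plain in it. Of the 32 genes, 31 were well above background in the sample channel on all 20 arrays, and 25 had a control mean above the reference RNA. The 7 below the reference were Slc14a1, Id3, Ptprz1, Vim, Nes, Mt1 and Lcn2, each read from its brightest probe. For Ptprz1 the other probes lay above the reference in control, at 4.80, 6.88 and 1.19. Lcn2 was the dim exception, well above background on 7 arrays: 2 control, 1 AP5, 1 NVP and 3 Ro25. Genes of neurons were present beside them, with a mean of 18 pan-neuronal markers between 4.00 and 4.80 across arrays. Of 15 microglial and macrophage markers 11 were measurable, with a mean between -2.54 and -1.91. In the reference channel the Gjb6 spot was well above background on 0 of 20 arrays, and Gfap and Aqp4 on 9 each. The ratios of these 3 genes therefore rest on a reference near its floor. Their other probes had the reference well above background on more arrays, 16 and 14 for Gfap, 18 and 17 for Aqp4 and 10 for Gjb6. How far the differences depend on the reference was not tested.

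No astrocyte gene passed the test against vehicle with any of the 3 antagonists. In limma with Benjamini-Hochberg adjustment over all genes, 0 of 32 passed 0.05 with AP5, where 6.11% of all genes tested passed. With NVP 0 of 32 passed against 0% of all genes, and with Ro25 0 of 32 passed against 0.0155%. At an unadjusted p under 0.05 the counts were 1 of 32 with AP5 (17.8% of all genes), 0 with NVP (5.87%) and 0 with Ro25 (4.34%). In none of the 3 comparisons did the 5 and 5 arrays of a member stand clear of each other, which 6.42%, 1.83% and 1.03% of all genes did. The median difference over the 32 genes was 0.03 with AP5, 0.01 with NVP and -0.03 with Ro25, beside -0.01, -0.01 and 0 over all genes. Between the antagonists 2 of 32 members had an unadjusted p under 0.05 in each of the 3 pairs, beside 18% of all genes for AP5 against NVP, 13.2% for AP5 against Ro25 and 5.91% for NVP against Ro25. The comparisons share arrays.

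How large a change this fit would have missed differed between genes, because astrocyte genes varied more between arrays of 1 group than most genes. Arrays of different groups also deviated together, as described below, and this fit leaves such shared deviations in its error. The median standard error of a difference was 0.17 over the 32 genes and 0.096 over all genes. With AP5 the 95% interval lay inside 2-fold in either direction for 29 genes and inside 1.5-fold for 19. With NVP these counts were 27 and 22, and with Ro25 29 and 23. Gfap and the brightest Ptprz1 probe fell outside the 2-fold range with every antagonist, so that this fit cannot tell a change of that size in them from none.

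**Figure D1:**
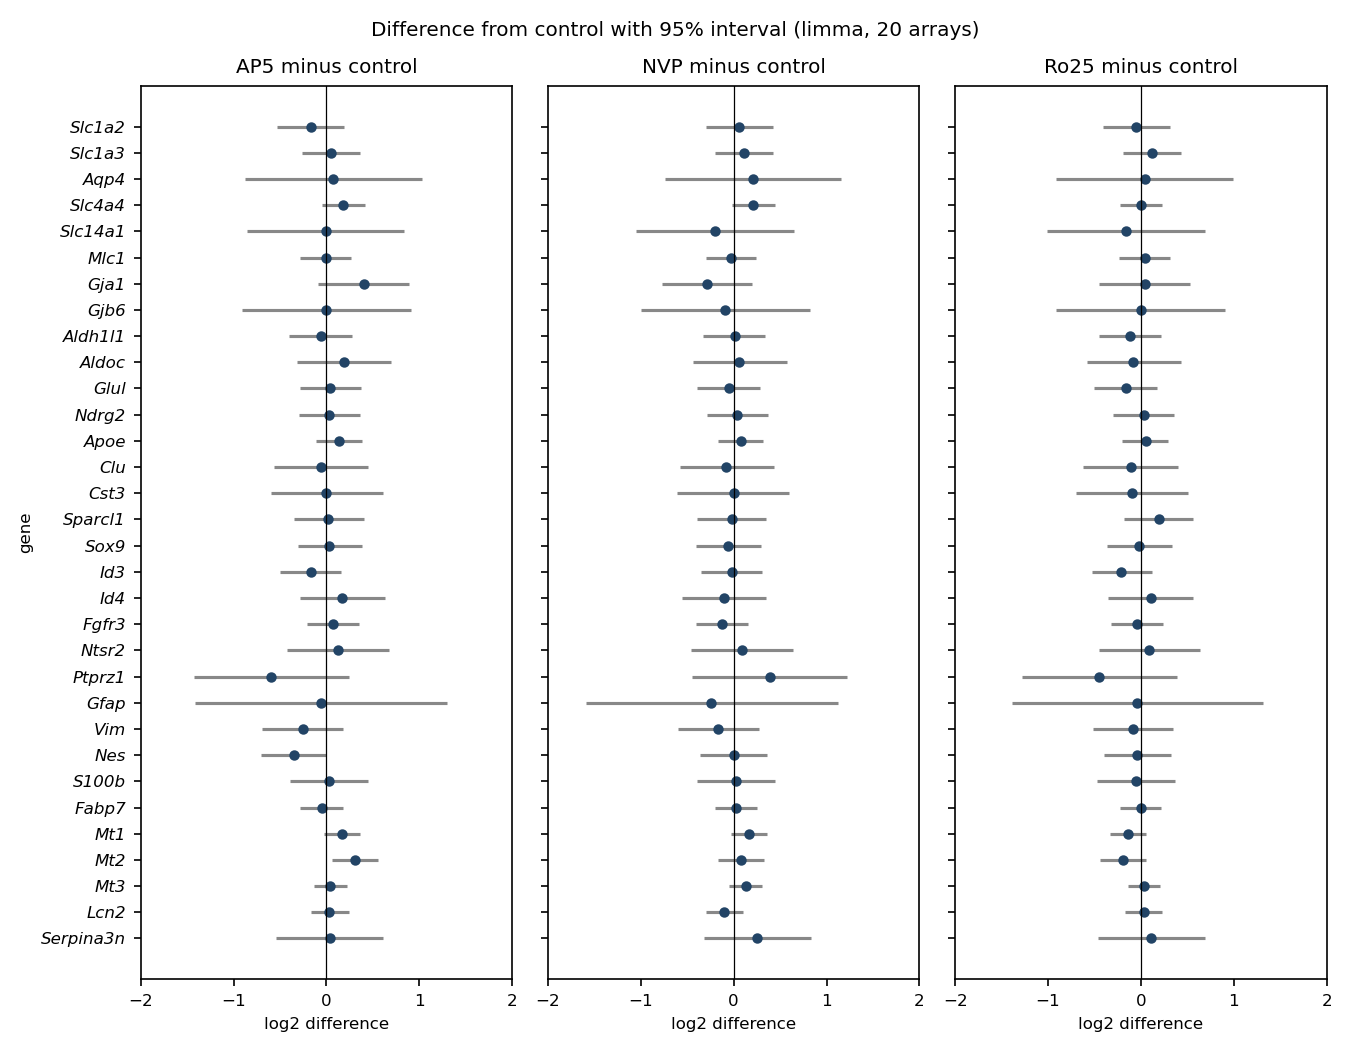
Log2 difference from control (horizontal axis) of each of the 32 genes (vertical axis) with AP5, NVP and Ro25; points are limma estimates and lines 95% intervals. Points gather near 0 in all 3 panels, and the widest intervals belong to Gfap, Aqp4, Gjb6, Slc14a1 and Ptprz1.

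The intermediate filament genes come first, since Gfap is the usual marker of astrocytes and of their reaction to injury. Gfap read 5.80, 5.57, 3.98, 5.11 and 5.89 on control arrays 1 to 5, and 2.82, 4.99, 5.99, 5.68 and 6.58 on the AP5 arrays. On the NVP arrays it read 4.82, 5.86, 4.63, 3.56 and 6.30, and on the Ro25 arrays 4.92, 3.50, 5.73, 5.55 and 6.45. Each group held arrays that were high and at least 1 that was far lower, and the 4 groups overlapped throughout. The control mean was 5.27 ± 0.78, beside 5.21 ± 1.45 in AP5, 5.03 ± 1.08 in NVP and 5.23 ± 1.11 in Ro25 (each SD, n = 5). The differences from control were -0.06, -0.24 and -0.04, with exact two-sided permutation p of 0.921, 0.69 and 0.921 and 0.992 for each after adjustment over 6 pairs, where the smallest p that 5 against 5 arrays allow is 0.00794. The limma intervals were wide, from -1.41 to 1.30 with AP5, from -1.59 to 1.12 with NVP and from -1.39 to 1.31 with Ro25. All 3 Gfap probes gave the same picture: the deviations of the other 2 correlated with the first at 0.98 and 0.95.

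Vim, which encodes the filament protein that astrocytes share with progenitors and fibroblasts, lay far below the reference, with group means of -3.17 ± 0.37 in control, -3.42 ± 0.34 in AP5, -3.33 ± 0.39 in NVP and -3.25 ± 0.32 in Ro25 (SD, n = 5 each). Nes, which encodes nestin of progenitors and some reactive astrocytes, read 0.03, 0.12, -0.06, -0.42 and -0.58 on control arrays and -0.41, -0.86, -0.41, -0.31 and -0.69 on AP5 arrays. All 5 AP5 arrays lay below the control mean, yet the ranges overlapped. The difference was -0.35 (SE 0.17), with an adjusted p of 0.291 in limma.

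The transport genes carry glutamate, water and ions across the astrocyte membrane. Slc1a2 encodes the main astrocytic glutamate transporter GLT-1 and read 4.08, 3.90, 3.98, 4.07 and 3.94 on control arrays. On AP5 arrays it read 2.86, 4.09, 4.00, 4.04 and 4.12, on NVP arrays 4.13, 4.04, 3.87, 4.22 and 4.03, and on Ro25 arrays 3.93, 3.84, 4.08, 3.72 and 4.15. Apart from AP5 1, the lowest, all arrays lay between 3.72 and 4.22. Slc1a3, the partner transporter GLAST, had group means from 5.51 to 5.63 and no difference from control above 0.12. Slc4a4, a sodium bicarbonate cotransporter, was the transport gene with the largest positive differences beside its error: 0.18 (SE 0.11, adjusted p 0.449) with AP5 and 0.21 (SE 0.11, adjusted p 0.9) with NVP in limma. It passed the threshold with AP5 when the scanner's own processed signals were used (0.71, adjusted p 0.00481) or the first scan day alone (0.37, adjusted p 0.0415), but its other 2 probes differed by -0.23 and 0.19.

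Aqp4, the water channel of astrocyte endfeet, read 4.28, 3.91, 3.18, 3.70 and 4.59 on control arrays and 2.27, 4.02, 4.21, 4.26 and 5.28 on AP5 arrays. On NVP arrays it read 3.90, 4.47, 3.82, 3.46 and 5.08, and on Ro25 arrays 3.96, 3.03, 4.08, 3.57 and 5.21. The array numbered 5 was the highest of each group, and the groups overlapped. Its differences from control were 0.07, 0.21 and 0.04 (SE 0.46 each). The other Aqp4 probes, whose deviations correlated with the first at 0.99 and 0.98, differed by 0.25 and 0.24 with AP5. With NVP they differed by 0.21 and 0.17, and with Ro25 by 0.15 and 0.11. Mlc1, an endfoot membrane protein, stayed within group means of 6.09 to 6.15. Slc14a1, a urea transporter, read -2.11, -2.36, -2.47, -2.09 and -0.80 on control arrays and -2.42, -2.17, -2.14, -2.25 and -0.88 on AP5 arrays. On NVP arrays it read -2.40, -2.33, -2.56, -2.68 and -0.84, and on Ro25 arrays -2.55, -2.77, -1.98, -2.52 and -0.83. In every group the array numbered 5 was the highest, and the other 4 arrays of the groups lay between -2.77 and -1.98, while the group means differed from control by at most 0.20 in size.

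The gap junction genes Gja1 (the main astrocyte connexin) and Gjb6 (a second connexin) couple astrocytes into a network. Gja1 read 0.32, 0.54, -0.07, -0.14 and 0.57 on control arrays and 0.22, 0.25, 1.21, 0.65 and 0.87 on AP5 arrays. On NVP arrays it read -0.34, 0.07, -0.03, -0.51 and 0.60, and on Ro25 arrays -0.24, -0.14, 0.56, 0.65 and 0.57. AP5 arrays were on average the highest and NVP arrays the lowest, with overlap. Between AP5 and NVP the difference was 0.68 (SE 0.23, 95% interval 0.19 to 1.17), which had an unadjusted p of 0.00876 and an adjusted p of 0.0995 in limma. In that comparison 0 of 32 members passed, beside 5.76% of all genes, and 0 were without overlap, beside 6.95%. Without NVP 5, Gja1 (0.84, adjusted p 0.0316) and Ptprz1 (-1.40, adjusted p 0.013) passed in limma. Gjb6 had group means of 4.47, 4.47, 4.38 and 4.47 in control, AP5, NVP and Ro25, with SDs from 0.59 to 1.10. A second Gjb6 probe, whose deviations correlated with the first at 0.96, differed from control by 0.24, 0 and 0.16 with AP5, NVP and Ro25.

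**Figure D2:**
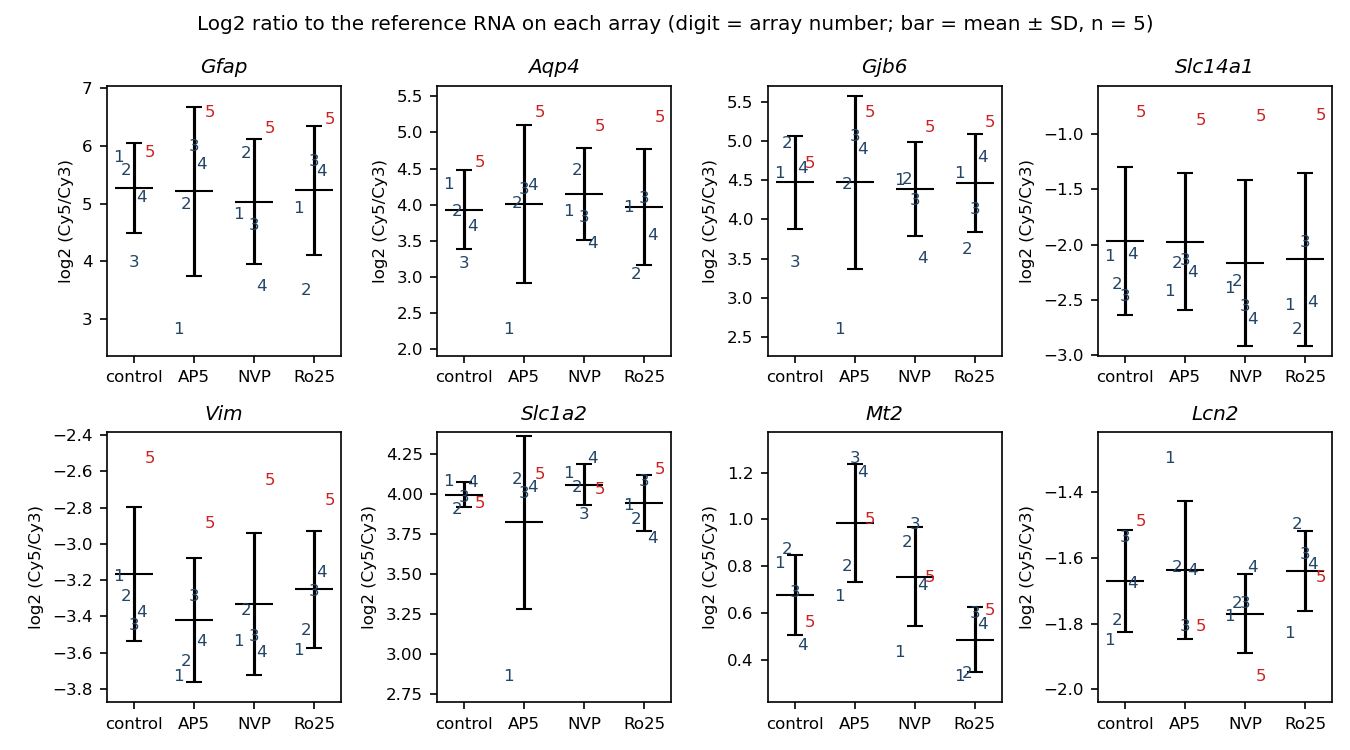
Log2 ratio to the reference RNA (vertical axis) of 8 genes on each of the 20 arrays by group (horizontal axis); each digit is an array by its number, those numbered 5 are red, and bars give the mean ± SD (n = 5). Slc14a1 shows the arrays numbered 5 near -0.8 in all groups, Slc1a2 shows AP5 1 alone at 2.86, and Mt2 shows AP5 above Ro25.

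The metabolic and secreted genes differed little from control. Aldh1l1 (a folate enzyme and common astrocyte marker), Aldoc (a glycolytic aldolase), Glul (glutamine synthetase) and Ndrg2 had differences from control between -0.16 and 0.19 with all 3 antagonists. Apoe, the lipid carrier that astrocytes secrete, differed by 0.14 with AP5, 0.08 with NVP and 0.05 with Ro25, on group means of 5.39 to 5.53. Clu (clusterin), Cst3 (cystatin C) and Sparcl1 (hevin, which promotes synapse formation) had differences between -0.11 and 0.19. None of these 8 genes passed the threshold in any of the 6 pairs of groups.

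Among transcriptional regulators, Sox9, which directs glial fate, differed from control by 0.03, -0.06 and -0.02, and Id3 and Id4, targets of BMP signalling, by -0.21 to 0.17. The receptors Fgfr3 and Ntsr2 differed by -0.13 to 0.12. Ptprz1, a receptor phosphatase of glia and progenitors, varied widely, with group means of -1.31 ± 0.58 in control, -1.91 ± 0.61 in AP5, -0.93 ± 1.00 in NVP and -1.76 ± 0.49 in Ro25 (SD, n = 5 each). That value comes from its brightest probe. The other 3 Ptprz1 probes lay above the reference in control, at 4.80, 6.88 and 1.19, and their deviations correlated with those of the brightest at 0.42, 0.34 and 0.09, so no direction is drawn from the gene. S100b, a calcium-binding protein, and Fabp7, a fatty acid-binding protein of glial progenitors, differed from control by -0.05 to 0.03.

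The metallothioneins, small proteins that bind zinc and copper and are induced by metals, glucocorticoids and oxidative stress, held the 1 member called in any comparison, Mt2. Their genes follow each other in the order Mt3, Mt2 and Mt1 on chromosome 8 of GRCm38.p6, Mt3 being the brain form. The 250 bases before the RefSeq start of Mt2 and of its neighbour Mt3 are shown, on the plus strand at chr8:94172368-94172617 and chr8:94152357-94152606. Capitals mark matches on either strand to TGCNCNC. This pattern is looser than the core of the metal response element to which the zinc-sensing factor MTF-1 binds, so not every match is such a core.
Mt2: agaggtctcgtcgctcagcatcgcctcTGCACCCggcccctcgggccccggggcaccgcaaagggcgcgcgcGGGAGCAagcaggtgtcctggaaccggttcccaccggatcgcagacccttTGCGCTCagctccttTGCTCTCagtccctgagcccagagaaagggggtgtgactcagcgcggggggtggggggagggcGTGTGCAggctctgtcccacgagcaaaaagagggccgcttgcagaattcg
Mt3: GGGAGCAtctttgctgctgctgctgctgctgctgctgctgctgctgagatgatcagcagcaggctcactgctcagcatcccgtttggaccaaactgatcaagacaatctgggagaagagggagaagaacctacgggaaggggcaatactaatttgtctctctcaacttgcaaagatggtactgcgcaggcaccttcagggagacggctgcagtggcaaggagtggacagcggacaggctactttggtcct
The Mt2 window held 5 matches, 3 on the plus strand and 2 on the minus, and the Mt3 window held 1, on the minus strand. The Mt1 window in the same table also held 1. Among 32851 promoter windows of that length in the RefSeq table, 44.4% held at least 1 match and 4.65% held 3 or more. A match describes letters of this looser pattern only, no binding was measured, and 15 of the 27 members with a window held at least 1.

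Mt2 read 0.81, 0.87, 0.69, 0.46 and 0.56 on control arrays and 0.67, 0.80, 1.26, 1.20 and 1.00 on AP5 arrays. On NVP arrays it read 0.43, 0.90, 0.98, 0.72 and 0.75, and on Ro25 arrays 0.33, 0.34, 0.60, 0.55 and 0.61. Every AP5 array lay above every Ro25 array, whereas control and NVP arrays overlapped with both. The difference between AP5 and Ro25 was 0.50 (SE 0.12, 95% interval 0.25 to 0.75), a 1.41-fold higher level with AP5, with an adjusted p of 0.0221 in limma. It was the 1 of 32 members to pass in this comparison, beside 3.09% of all genes in either direction and 1.13% higher with AP5, and the 1 member without overlap, beside 3.94% of all genes. That share of the members is close to the background. Against control Mt2 differed by 0.31 with AP5 (SE 0.12, unadjusted p 0.0183, adjusted p 0.159 in limma) and by -0.19 with Ro25 (SE 0.12).

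The Mt2 call was not firm. In limma it was lost without AP5 3 (0.43, adjusted p 0.0692), AP5 4 (0.45, 0.0678), Ro25 1 (0.46, 0.0666) or Ro25 2 (0.46, 0.0605). It was also lost with slide as a fixed block (0.25, adjusted p 0.569), with median centring (0.65, adjusted p 0.543) and on the first scan day alone (0.48, adjusted p 0.095). With slide as a random block in limma it was kept (0.51, adjusted p 0.0175).

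Mt1 read -0.23, -0.26, -0.32, -0.49 and -0.53 on control arrays and -0.44, -0.21, -0.07, -0.04 and -0.25 on AP5 arrays. On NVP arrays it read -0.40, -0.04, -0.02, -0.19 and -0.38, and on Ro25 arrays -0.45, -0.67, -0.43, -0.57 and -0.42. The Ro25 arrays were the lowest group, clear of every NVP array. Mt1 was 0.30 higher with AP5 than with Ro25 (SE 0.09, 95% interval 0.11 to 0.50, adjusted p 0.09) and 0.30 higher with NVP than with Ro25 (SE 0.09, adjusted p 0.745) in limma. Between NVP and Ro25 0 of 32 members passed, beside 0% of all genes, and Mt1 was the 1 member without overlap, beside 0.589%. Mt1 passed between AP5 and Ro25 without AP5 1 (0.36, adjusted p 0.0391). A second, dimmer Mt1 probe followed it at a correlation of deviations of 0.39. Mt3 had group means of 2.96, 3.01, 3.09 and 3.00 in control, AP5, NVP and Ro25 and passed in no pair.

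The 2 acute reactive genes did not pass in any pair. Lcn2, a secreted iron-siderophore carrier induced in reactive astrocytes, had group means of -1.67 ± 0.16, -1.64 ± 0.21, -1.77 ± 0.12 and -1.64 ± 0.12 in control, AP5, NVP and Ro25 (SD, n = 5 each), and it was well above background on 7 of the 20 arrays. Serpina3n, a secreted protease inhibitor, read 2.27, 1.89, 1.78, 2.25 and 2.42 on control arrays and 1.14, 2.34, 1.92, 2.42 and 2.98 on AP5 arrays. On NVP arrays it read 2.21, 2.44, 2.14, 2.05 and 3.05, and on Ro25 arrays 2.35, 1.80, 2.22, 1.86 and 2.95. Again the array numbered 5 was the highest in each group, and differences from control were 0.04, 0.25 and 0.11.

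While treatment groups overlapped, the astrocyte genes rose and fell together between arrays of the same group. With group means removed, the median Pearson correlation over the 496 pairs of members was 0.51 over 20 arrays, beside 0.02 over all pairs of genes tested. Of the member pairs 50.2% exceeded 0.5, beside 9.07% of all pairs. The first principal component held 55.5% of the members' variance and 21.9% of that of all genes. These are descriptions, with no p: the genes share arrays, dye and slide.

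The size of this joint variation rested in part on AP5 1 and Ro25 2, the 2 arrays of slide 6 and of the second scan day. Leaving them out cannot tell slide or scan day from the arrays themselves. Without AP5 1 the median was 0.33, beside 0 over all genes, and without both arrays of that slide it was 0.27, beside 0. With slide means removed it was 0.33, beside 0.01. With the scanner's processed signals it was 0.17, beside 0, and without the 4 arrays numbered 5 it was 0.56, beside 0.02. Under each of these settings the share of member pairs over 0.5, between 25.8% and 57.9%, was above that of all pairs, between 9.21% and 13.4%.

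Gfap was among the members nearest to the common pattern, with a correlation of 0.96 between its deviations and the mean of the other members, beside Aldh1l1 at 0.95, Aqp4 at 0.94 and Slc1a3, Gjb6 and Sparcl1 at 0.90 each. With slide means removed Aldh1l1 stood at 0.95 and Gfap and Cst3 at 0.93. The members closest to Gfap, over 20 arrays, were Aqp4 (r 0.93, Spearman's rho 0.92), Gjb6 (r 0.93, rho 0.83), Aldoc (r 0.92, rho 0.86) and Cst3 (r 0.91, rho 0.91). The median r with Gfap over the 31 other members was 0.74, and 0.66 without AP5 1 and Ro25 2, the 2 arrays farthest from the Gfap median. For Aqp4, Gjb6, Aldoc and Cst3 r without those arrays was 0.89, 0.88, 0.90 and 0.89. For Slc1a2 it went from 0.58 to 0.17, for Apoe from 0.52 to 0.19 and for Mlc1 from 0.44 to -0.02, so that these relations rested on those arrays. No p is given for these relations, since arrays of different groups deviated together.

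Not all members varied alike. Mlc1 and Fabp7 correlated at 0.88 (0.86 with slide means removed), while each was close to 0 with Slc14a1 (0.09 and -0.05). Apoe, Mt3 and these 2 genes correlated pairwise at 0.52 (Apoe with Mt3) to 0.88, but Mlc1 also followed Slc1a3 (0.77) and S100b (0.74). Slc14a1 correlated at 0.94 with Vim and with Clu, and Clu in turn at 0.94 with Cst3 and 0.92 with Aqp4. Mt1 and Mt2 correlated at 0.83. The correlation with the mean of the other members was negative for Lcn2 (-0.68), Nes (-0.26) and the brightest Ptprz1 probe (-0.33), whose other probes followed it poorly. Lcn2 and Gjb6 correlated at -0.80, with Lcn2 near background. These genes were picked after their correlations were seen.

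**Figure D3:**
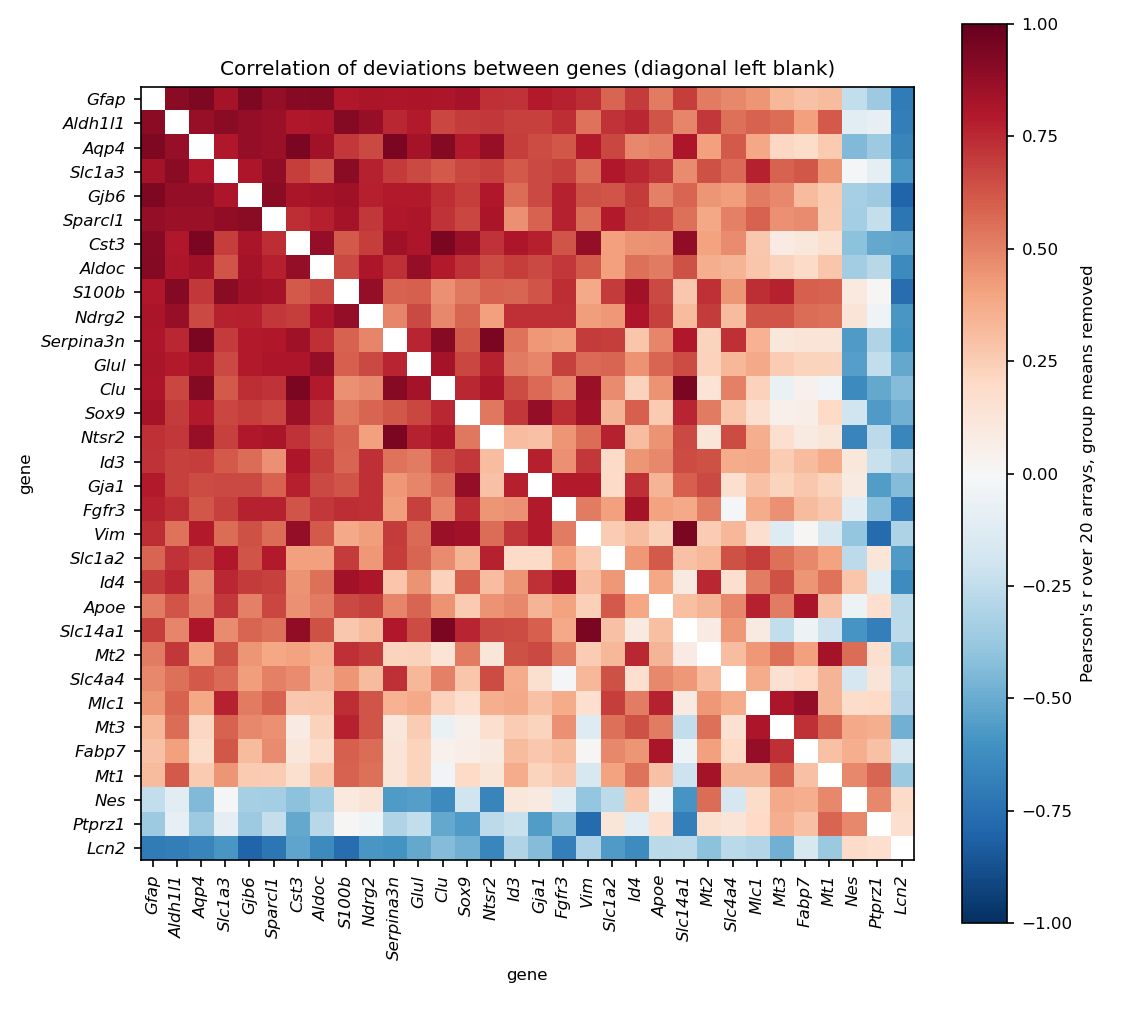
Pearson's r between the deviations of each pair of the 32 genes from their group means over 20 arrays, genes ordered on both axes by their correlation with the mean of the others. Most of the square from Gfap to Slc14a1 is red, and Nes, Ptprz1 and Lcn2 at the end are mostly blue.

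Single genes differed widely in their spread. In the loess ratios the within-group SD of Gfap was 1.13, above 99.9% of the genes tested, and those of Aqp4, Gjb6, Slc14a1 and Ptprz1 were 0.80, 0.76, 0.71 and 0.70. The spread of Gfap depended on the processing. With the scanner's processed signals its differences from control were 0.13 with AP5, -0.06 with NVP and -0.19 with Ro25. Exact permutation p were 0.5, 0.754 and 0.365, lower than an SD of 1.13 would give for differences that small. Aldh1l1 and Slc1a3 had SDs of 0.27 and 0.25. At the other end Mt3 and Mt1 had SDs of 0.13 and 0.15, at the 34.6th and 47th percentile.

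By array, the mean over the 32 genes ran from 2.14 to 2.58 in control, from 1.80 to 2.76 in AP5, from 2.20 to 2.68 in NVP and from 2.04 to 2.72 in Ro25. Group means were 2.43 ± 0.18, 2.44 ± 0.38, 2.44 ± 0.18 and 2.39 ± 0.26 (SD, n = 5 each). AP5 1 was the lowest array of all and the lowest of its group for 29 of the 32 genes. Its pan-neuronal mean, at 4.00, was also below the 4.31 to 4.80 of the other arrays, so that astrocyte and neuronal markers were both low there. Without it the median difference of the members between AP5 and control was 0.18 in place of 0.03, with 27 genes positive and 5 negative, and 0 of 32 passed (lowest adjusted p 0.056 in limma, for Mt2). Ro25 2, control 3 and NVP 4 were the next lowest, with 3, 6 and 8 of the 32 genes above their group mean, and pan-neuronal means of 4.65, 4.58 and 4.80. These arrays were also among the dimmer ones. The share of probes well above background in red was 60.15% on AP5 1, 58.65% on Ro25 2, 62.21% on control 3 and 60.3% on NVP 4. On the other arrays it ran from 60.82% (NVP 3) to 69.39% (Ro25 1).

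The arrays numbered 5 stood at the other end. Array 5 was the highest of its group in all 4 groups for 8 members, Aqp4, Slc14a1, Aldoc, Clu, Cst3, Gfap, Vim and Serpina3n, and the lowest in all 4 for 0 members. Over all genes 5.12% were highest and 3.90% lowest in this way. For Aqp4, Slc14a1, Clu, Cst3 and Vim the 4 arrays numbered 5 lay above all 16 others. Clu was 2.74 to 2.87 on them and 1.57 to 2.22 elsewhere, Cst3 2.14 to 2.30 and 0.69 to 1.70, and Vim -2.89 to -2.53 and -3.73 to -3.16.

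This was not limited to astrocyte genes. Over 19292 genes outside the list, the deviations of the 4 arrays numbered 5 from their group means correlated with each other at 0.57 to 0.76 in all 6 pairs. For the other numbers the 24 pairs ran from -0.45 to 0.51, with 5 over 0.1. Other arrays of different groups and numbers also deviated together: NVP 4 with control 3 (0.75) and Ro25 2 (0.73). Control 4 went with Ro25 1, NVP 1 and AP5 2 (0.65, 0.64 and 0.63). Control 2 went with Ro25 4 (0.78), NVP 3 (0.54) and AP5 4 (0.45), and control 1 with NVP 2 (0.51) and AP5 3 (0.43). NVP 4 lay on slide 2, control 3 on slide 4 and Ro25 2 on slide 6, so these partners did not share a slide. The p-values and intervals given here treat arrays as independent and take no account of such shared deviations. No fit with these partners as a block was made, since the labels do not give them. The labels give no culture or day of preparation, and the cause was not tested.

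**Figure D4:**
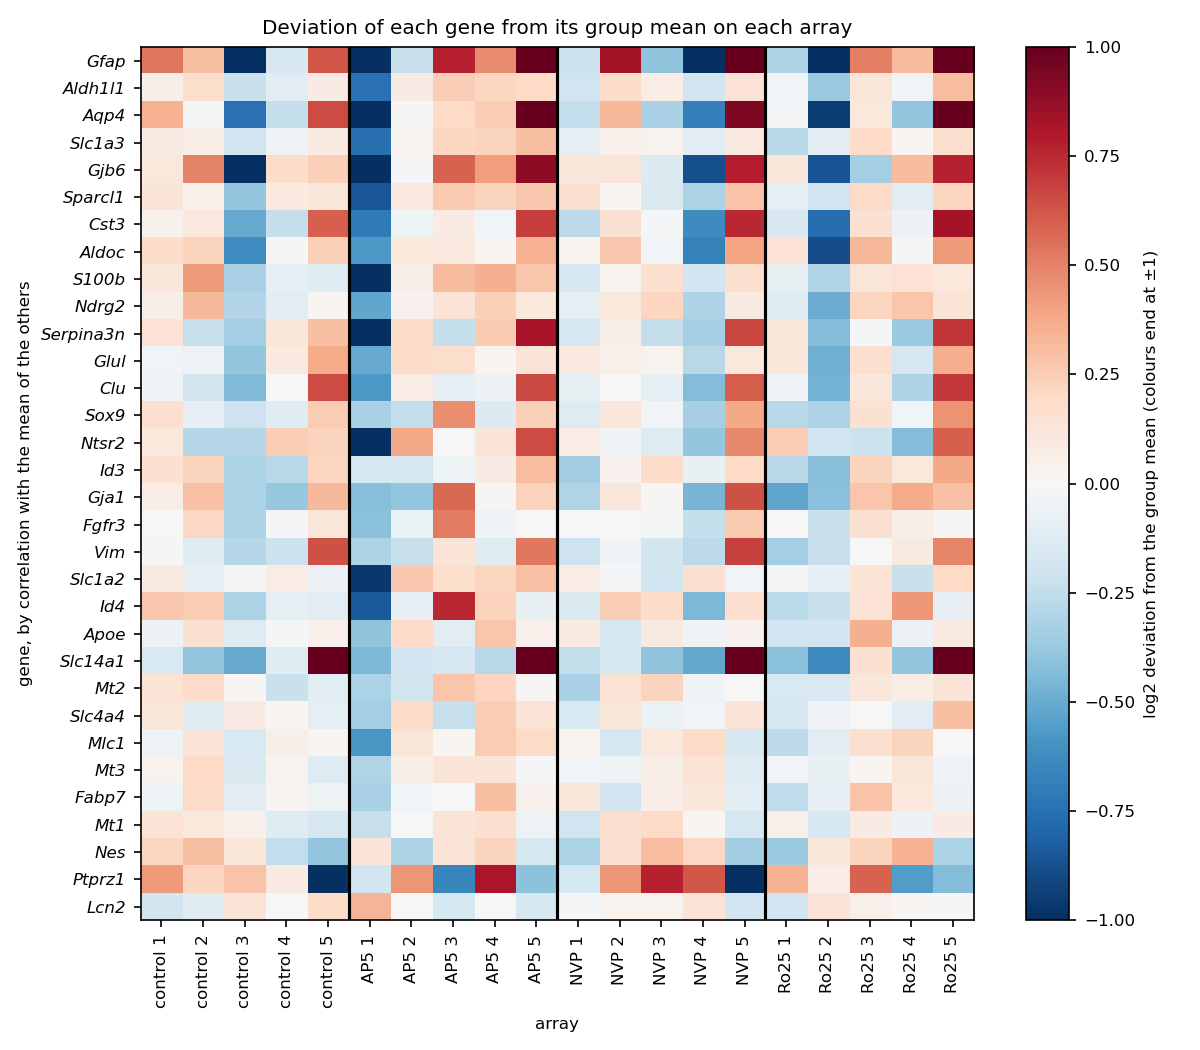
Log2 deviation of each of the 32 genes (rows, in the order of their correlation with the mean of the others) from its group mean on each array (columns, grouped by treatment). AP5 1, Ro25 2, control 3 and NVP 4 are blue, and the arrays numbered 5 red, down most of the rows.

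Slide and group were partly joined. Slide 5 held 4 of the 5 control arrays and slides 1 and 7 held AP5 arrays alone, and no slide held AP5 with control, so that no difference between AP5 and control can be had within a slide. Within slide 4 the mean over members was 0.32 higher on 3 Ro25 arrays than on control 3, and within slide 2 it was 0.37 higher on AP5 5 than on 3 NVP arrays. The difference was -0.24 between AP5 1 and Ro25 2 within slide 6, and -0.03 between 2 NVP arrays and Ro25 3 within slide 3. AP5 5 is the highest array of all (2.76), while AP5 1, Ro25 2, control 3 and NVP 4, which shares slide 2 with AP5 5, are the lowest. Since each difference also rests on 1 array of a group, these are values with no test.

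Lists of other genes were read in the same fit. Of 35 further astrocyte identity genes 0 passed with AP5, with a median of 0.06, and Chrdl1, a secreted factor that matures synapses, came nearest at 0.39 (SE 0.13, adjusted p 0.0864). Of 32 other reactive genes tested 2 passed with AP5 in limma. Synm, which encodes an intermediate filament protein that assembles with vimentin, rose by 1.06 (SE 0.24, adjusted p 0.0085), and S100a10, a calcium-binding protein of the annexin complex, fell by 1.16 (SE 0.28, adjusted p 0.0143). Of 18 genes of astrocyte differentiation signals 1 passed: Cntfr, the receptor subunit for ciliary neurotrophic factor, rose by 0.69 with AP5 (SE 0.14, adjusted p 0.00478 in limma). The background with AP5 was 2.53% of all genes higher and 3.58% lower. With NVP and with Ro25 0 genes of these 3 lists passed.

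Markers of other cells give the surroundings of these values. With AP5 the counts in limma were 1 of 18 pan-neuronal genes higher (Celf4), 0 of 9 excitatory and 0 of 10 inhibitory neuron genes, and 0 of 10 oligodendrocyte lineage genes. Of 11 microglial genes Csf1r was higher and Fcer1g and Fcgr3 lower, of 7 endothelial genes Kdr was higher, of 9 fibroblast genes Col1a2 was lower, of 8 progenitor genes Cd24a was higher, and of 4 ependymal genes 0 passed. Of 20 proliferation genes 15 were lower with AP5, among them Ccna2 (-0.58), Mcm2 (-0.44), Ube2c (-0.42) and Tk1 (-0.34), which serve cell division and DNA synthesis. Their mean was -2.99 to -2.84 on AP5 arrays and -2.62 to -2.31 on control arrays, without overlap, while the astrocyte means overlapped. With NVP and with Ro25 0 of the 20 passed. Whether the dividing cells were astrocytes was not measured.

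Across arrays, with group means removed, the mean over the 32 members followed the 35 other astrocyte identity genes (r 0.89, rho 0.83, n = 20) and 32 other reactive genes (r 0.74, rho 0.87). It also followed 10 oligodendrocyte lineage genes (r 0.86, rho 0.83) and 4 ependymal genes (r 0.81, rho 0.85), and to a lesser degree the share of probes well above background (r 0.57, rho 0.48). With pan-neuronal genes r was 0.24 and rho -0.19, and with proliferation genes r was -0.24 and rho -0.32. For the remaining lists r was 0.70 with progenitor genes, 0.66 with fibroblast genes, -0.62 with endothelial genes, 0.33 with differentiation signals, 0.33 with excitatory and 0.17 with inhibitory neuron genes, and 0.12 with microglial genes. The part of other glia and of signal strength in the members' joint variation was not tested.

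**Figure D5:**
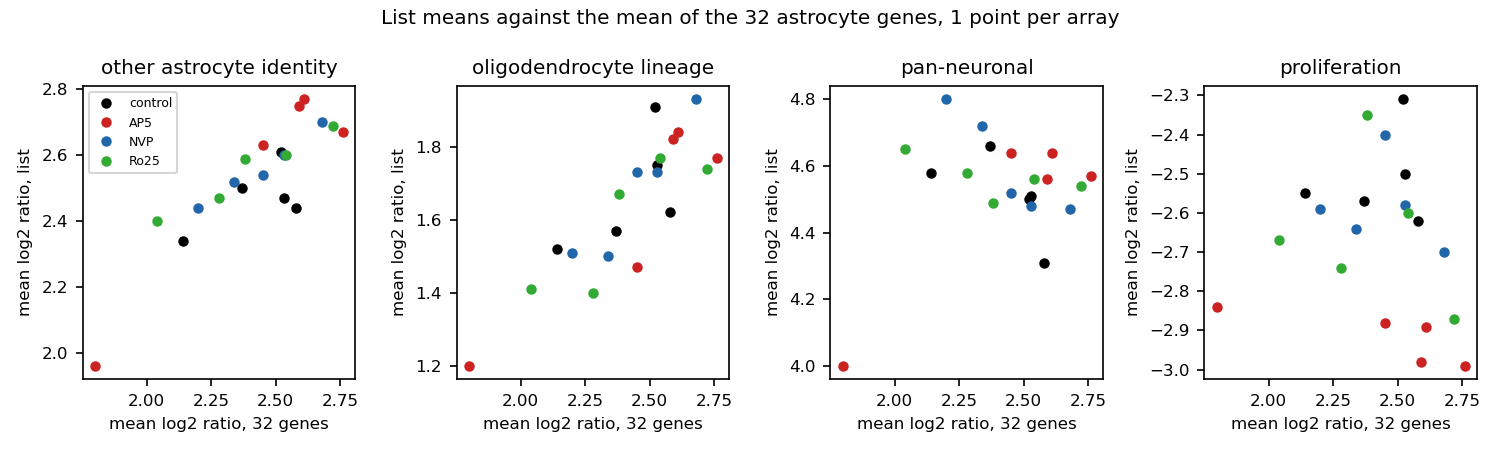
Mean log2 ratio of 4 gene lists (vertical axes) against the mean of the 32 astrocyte genes (horizontal axes), 1 point per array and 1 colour per group. The lists of other astrocyte and oligodendrocyte genes rise with the members, the pan-neuronal list does not apart from AP5 1 at 4.00, and the proliferation list is low in AP5 at any astrocyte level.

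Among 15119 other genes well above background on all arrays, those whose deviations were most like the member mean were Cybrd1, Atp13a4 and Olfr1393 (r 0.95 each), Maob, Kcne1l and Gpr37l1 (0.94 each), and Ndp, Ngfr, Itgb5 and Emid1 (0.93 each), over 20 arrays. Gpr37l1 is on the list of other astrocyte genes, and Maob encodes monoamine oxidase B. The most opposed were a transcript listed as NAP033385-1 (-0.94), Gmeb2 (-0.91), Klf10 (-0.88), Rgs10, Vps13b and a transcript listed as TC1430646 (-0.87 each), Smg1 (-0.86), Bbc3 (-0.85), and Onecut2 and Ccdc186 (-0.84 each). The median over these 15119 genes was 0.10, and 397 exceeded 0.8.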

How the data were processed

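Members and lists were chosen with earlier results of these data known. The authors deposited scanner output, an intensity on a linear scale for red and green, which per the file headers came from Feature Extraction 10.7.3.1 (11.0 per the submitters' processing notes). They also deposited a value table of log2 ratios. Over 11141 probes it followed the log2 ratios of the scanner's processed signals, at correlations of 0.987 to 0.9905 and slopes of 0.8339 to 0.8573. The loess ratios used here were not compared with it in this way. The centring of the value table is unknown, and its column medians were 0.0302 to 0.0626. No red spot was saturated (0 on every array), 86 to 172 spots per array were outliers and left out, and 58.65 to 69.39% of probes were well above background in red.

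Background was corrected by normexp (offset 50), arrays were normalized by loess, and spots of a probe were averaged. A probe entered (28518 did) if its red spot was well above background on 5 or more arrays. Each gene was read from its brightest probe, and of 41174 probes 22951 were named through RefSeq accessions, 6659 by symbol and 3109 by synonym (GRCm38.p6). All 58 member probes carried the same name in RefSeq. A model with a mean per group was fitted over 20 arrays with limma 3.58.1 (R 4.3.3, data.table version 1.17.8; residual df 16), two-sided with Benjamini-Hochberg adjustment at 0.05 over 19360 genes. On simulated data for AP5 against control with 19324 genes, the fit called 74% of 100 genes changed 1.5-fold and 92% of 100 changed 2-fold. Of its 172 calls 3.49% fell on unchanged genes. The simulated noise was independent between arrays, and the changed genes were drawn at random from all genes. These rates therefore do not carry over to the 32 members, which varied more than most genes. For Gfap exact permutation tests over arrays were run. Named genes are all 32 members, up to 4 genes of each other list by adjusted p with AP5, and the 10 most and 10 least like the member mean. Slide and scan day come from the file headers. The precision is limited by the number of arrays and by deviations shared between arrays of different groups, which the fit leaves in its error. Promoter sequences are RefSeq's, build GRCm38.p6, for 27 of 32 members.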

Additional observations from a re-analysis of the deposited data

Results flagged for a closer look

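Values that stood apart from the other 4 arrays of their group by Dixon's test were found in 16 of 132 sets of 5 arrays (each of the 32 genes, and the mean over them, in each of 4 groups), where chance gives about 1 in 20. The sets are not independent, since the genes varied together on the same arrays. The count is therefore no test against that rate. AP5 1 was low in 8 of the 16: Slc1a2 (2.86, others 4.00 to 4.12), Slc1a3 (4.80), Mlc1 (5.52), Aldh1l1 (1.86), Glul (3.66), Ndrg2 (4.29), Sparcl1 (7.68) and S100b (4.45). Arrays numbered 5 account for another 5: Slc14a1 was high in control 5 (-0.80), AP5 5 (-0.88) and NVP 5 (-0.84), Vim was high in NVP 5 (-2.65), and Ptprz1 was low in control 5 (-2.32). The rest were Gjb6 (3.45) and Sparcl1 (8.12), both low in control 3, and Glul, low in NVP 4 (3.79). Slc14a1 in Ro25 5 read -0.83 but did not stand apart by this test, since Ro25 3 at -1.98 widened the gap among the others.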

How the results depend on the processing

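Counts of called members by limma changed as follows. Between AP5 and control the count of 0 became 2 with the scanner's processed signals (Slc4a4 and Mt2), 1 with the deposited value table (Mt2) and 1 on the first scan day alone (Slc4a4). Between AP5 and Ro25 the count of 1 became 2 with processed signals and 0 with median centring, slide as a fixed block or the first day alone. Leaving out each array gave 0 to 2 in AP5 against NVP and in AP5 against Ro25, and 0 to 0 in the other 4 pairs. All genes called between AP5 and control numbered 1183, but 165 with median centring, and 1335 with slide as a random block. A fixed slide block leaves each comparison with control resting on control 3, the lowest control array. The other 4 control arrays shared slide 5 with no other group. No count of all genes called against control is therefore given for that fit. In it the mean over members against control went from 0.01 to 0.32 for AP5, from 0.01 to 0.11 for NVP and from -0.04 to 0.32 for Ro25. For AP5 the mean over members was also 0.18 on the first day and 0.13 with median centring. Leaving out each array gave -0.07 to 0.17 for AP5, -0.06 to 0.07 for NVP and -0.12 to 0.05 for Ro25. The median pairwise correlation of 0.51 became 0.17 with processed signals, 0.36 with the value table, 0.33 with slide as a fixed block, 0.31 on the first day and 0.27 without slide 6 (chosen after seeing the data), and ran from 0.33 to 0.54 without each array. The median correlation with Gfap became 0.63 with slide means removed. The causes were not tested. Over single members 8 values passed anew, 7 calls of Mt2 were lost and 0 called values reversed. The numbers in the titles do not pair the samples throughout. Of 30 same-numbered pairs 11 correlated above 0.1, among them all 6 pairs of arrays numbered 5 (0.57 to 0.76). Of 20 arrays only the 4 numbered 5 correlated best with their own number. With the replicate block in limma the members called were 0 against control with each antagonist. Between AP5 and Ro25 1 was called (Mt2, 0.50, adjusted p 0.0204), and the block changed no other call.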
